A study of Mus musculus with 7 samples.

Results

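Some non-coding RNAs are transcribed from within the body of a protein-coding gene and in the same orientation. Of the 7580 transcript clusters that the authors listed as changed between *Ctcf*-cKO and wild-type tubules, 3192 were classed as non-coding, and 3181 of these had a position. A cluster is a group of probes read together as a single transcript. Of the 2821 non-coding clusters longer than 200 positions, 522 overlapped a coding cluster of the same list on the same chromosome and strand by at least 1 position. These 522 clusters, called inner clusters here, lay in 311 coding clusters, and each was set beside the coding cluster that it overlapped most. A further 140 long non-coding clusters overlapped a coding cluster on the opposite strand only, and 2159 overlapped none. The 4102 coding clusters are those of the classes Coding and Complex.

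RNA came from seminiferous tubules, freed of the tunica albuginea, of 3 wild-type and 4 *Ctcf*-cKO adult mice, with an Affymetrix mouse transcriptome array for each animal. The *Ctcf*-cKO mice were *Stra8-iCre-Ctcf* f/Δ, with a floxed and a deleted *Ctcf* allele and a Cre transgene driven by the *Stra8* promoter. That promoter acts in spermatogonia and pre-leptotene spermatocytes, and the study still observed CTCF in Sertoli, Leydig and spermatogonial cells. Wild-type littermates lacked Cre, and under the study's methods they could carry floxed *Ctcf* alleles. The mice had a C56BL/6J background, as the methods spell it. *Ctcf* itself had 0 rows in the list, so the deletion could not be checked in these values.

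All values are the authors' averages of the log2 signal per genotype, which have no spread and no n of their own, and a difference is the *Ctcf*-cKO average minus the wild-type average. Where averages are given in pairs, that of wild-type comes first. The list holds 0 columns of single mice, so no test between genotypes was possible. Its smallest difference in either direction was 1.00, and every cluster named here was therefore chosen by the authors for its change. Counts of directions are descriptions of such a list. Clusters within a gene share their source and are not independent.

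CTCF is a zinc finger protein that binds DNA, anchors chromatin loops and separates neighbouring regulatory domains. In the testis, spermatogonia divide and enter meiosis as spermatocytes, which give rise to round and then elongating spermatids. Sertoli cells nurse them inside the tubule, and Leydig cells make testosterone between the tubules. Introns of long genes can hold transcripts annotated as RNAs of their own. Probes placed in an intron on the strand of the gene also read its unspliced precursor, and the 2 kinds of RNA cannot be told apart by this array.

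Most inner clusters were higher in *Ctcf*-cKO. The difference was above 0 for 410 of 522 (78.5%) and below 0 for 112 (21.5%), where 35.1% of all rows, 37.9% of coding clusters and 20.1% of the 2299 other long non-coding clusters were higher. In bulk tubule RNA, fewer cells of a type and less RNA per cell cannot be told apart. The higher inner clusters had median averages of 5.69 and 7.04, with a median difference of 1.33 and a range from 1.01 to 2.82. For the lower ones the medians were 7.29 and 5.92, with a median difference of -1.38 and a range from -2.45 to -1.01. The other long non-coding clusters had similar sizes of change, with medians of 1.22 for 463 higher and -1.32 for 1836 lower clusters. At least log2(3), 1.58, was reached by 106 higher inner clusters and by 28 lower ones; among all higher rows of the list 24.5% reached it, and among all lower rows 19.9%.

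The directions of inner cluster and coding cluster matched almost throughout. Both were higher in 408 pairs and both lower in 111, together 519 of 522 pairs (99.4%). The difference of the inner cluster minus that of its coding cluster had a median of -0.07, quartiles of -0.28 and 0.18, and a range from -2.63 to 2.70. It lay within 0.5 on the log2 scale in 434 pairs (83.1%) and within 1 in 515. Differences of the list start at 1.00 in size and mostly lie in a narrow range, so pairs with matching directions are close partly by this choice. Among pairs higher in both, the inner cluster changed less than the coding cluster in 238, more in 163 and by the same amount in 7. Among pairs lower in both, it changed more in 63 and less in 48. Across pairs, the sizes of the 2 differences had a Pearson r of 0.34 and a Spearman rho of 0.26 over the 408 higher pairs and 0.20 and 0.25 over the 111 lower pairs. The same lower limit on both differences narrows their range and can lower these values. Pairs are not independent replicates, many share a coding cluster, and all values come from the same arrays.

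Opposite directions were found in 3 pairs. In *Etl4*, a gene of an actin-associated protein, the inner cluster at chr2:20214322-20216185 averaged 5.35 and 4.25, whereas the coding cluster averaged 6.93 and 8.46. Both averages of this inner cluster were under 6, so its direction rests on weak signal. Another inner cluster of *Etl4*, at chr2:20783182-20784306, went from 4.63 to 6.19, a difference of 1.56 beside 1.53 for the gene. The other pairs lay in families of near-identical copies. The coding cluster that carries the *Speer4c* and *Speer4e* symbols with *Gm21149* and *Gm21190* averaged 10.51 and 9.31, and its inner cluster at chr5:15498809-15501507 averaged 6.98 and 8.48. *Gm26853*, at chr8:19789798-19798548, averaged 5.84 and 6.97 within a coding cluster of *4930467E23Rik* and its copies, which averaged 10.79 and 9.51. Probes of such families can read several copies, so these values are uncertain. None of the 3 inner clusters had the description of a sense transcript without exon overlap, which most others had.

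The array's annotation placed 476 of the 522 inner clusters (91.2%) in the NONCODE class of sense transcripts with no exonic overlap. Of these, 394 were higher (82.8%). Of the other 46 inner clusters, 16 were higher (34.8%). The same class held 347 of the 2299 other long non-coding clusters (15.1%), of which 200 were higher (57.6%). NONCODE is a collection of non-coding transcripts, and it was the single source for 486 inner clusters. The median length of the 522 was 2206 positions, and 494 of them (94.6%) were read by 30 probes. Both genotypes averaged under 6 on the log2 scale in 75 inner clusters and in 193 of the other long non-coding clusters.

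Of the 522 inner clusters, 511 (97.9%) lay wholly inside the coding cluster. The remaining 11 were long clusters, from 11391 to 528895 positions, that overlapped a mostly short coding cluster by at most 16.4% of their own length. On chromosome 14, 5 of them overlapped *Gm2866*, *Gm17074*, *Gm3084*, *Gm3140* and *Gm26746*, uncharacterized genes that lie close together. All 5 were lower, with differences from -1.61 to -1.49. Of these, 4 share the symbol *4933406F09Rik*, and probes of such copies can read one another, so these may not be separate values. The longest, *Gm26567* at chr9:88599656-89128550, averaged 9.26 and 7.71, and *Gm10634*, which it overlaps, averaged 10.91 and 9.43. *Gm20629* was the single higher cluster of the 11, from 6.02 to 7.77, with *Gm10417* going from 5.67 to 7.43. In these 11 pairs the non-coding cluster encloses the coding cluster.

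Just above the length limit stood an inner cluster of 216 positions in *Axl*, a receptor tyrosine kinase gene of Sertoli cells and macrophages, which averaged 5.79 and 6.94. The next, of 227 positions in the helicase gene *Helz*, averaged 6.90 and 8.19, and that of 310 positions in the Polycomb gene *Phc3* averaged 5.64 and 7.05. Just below the limit, clusters of 176 positions in *Wdr64*, 141 in *Gm10619* and 140 in *Shcbp1l* had differences of -1.33, -1.65 and -1.59. There were 29 short clusters on the strand of an overlapping coding cluster, of which 9 were higher.

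Inner clusters were found mainly in long coding clusters. The median length was 116.7 kb for higher coding clusters with an inner cluster and 21.2 kb for those without, and 79.6 kb and 11.9 kb for lower ones. Higher coding clusters were also longer as a group, so the lengths were compared in bands. Between 30 and 100 kb, 72 of 432 higher coding clusters held an inner cluster (16.7%) and 31 of 531 lower ones (5.84%). Between 100 and 300 kb the counts were 92 of 208 (44.2%) and 30 of 186 (16.1%), and above 300 kb they were 37 of 56 (66.1%) and 13 of 40 (32.5%). In these bands the share among higher coding clusters was above that among lower ones. It was also above it between 10 and 30 kb, with 18 of 445 (4.04%) and 7 of 632 (1.11%). Up to 10 kb it was not, with 2 of 410 (0.488%) and 9 of 1157 (0.778%). In that band, the non-coding cluster encloses the coding cluster for all 9 lower ones and for *Gm10417* of the 2 higher ones. The exception therefore rests on overlap, and none of those 9 has a non-coding cluster wholly inside. Across all lengths, 221 of 1551 higher coding clusters with a position (14.2%) and 90 of 2546 lower ones (3.53%) held an inner cluster.

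The list itself divides coding clusters into Coding and Complex, the latter annotated with more than a coding transcript. Inner clusters lay in 181 of 1079 higher Complex rows (16.8%) and in 40 of 472 higher Coding rows (8.47%). Among lower rows the counts were 68 of 1058 (6.43%) and 22 of 1488 (1.48%). Complex rows were longer, with medians of 31.0 kb and 26.8 kb for higher and lower rows beside 15.0 kb and 6.69 kb for Coding rows.

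The sizes of change of coding clusters with and without an inner cluster were set side by side. The median difference was 1.41 for the 221 higher ones and 1.31 for the 1330 higher ones without an inner cluster, and -1.37 and -1.28 for lower ones. At least log2(3) was reached by 67 of the 221 (30.3%) and by 27.0% of the higher ones without, and by 20 of 90 lower ones (22.2%) and 12.9% of those without. In the band from 100 to 300 kb the medians of higher rows were 1.42 with and 1.24 without an inner cluster, and those of lower rows were -1.39 and -1.32. Between 30 and 100 kb they were 1.45 and 1.31 for higher rows, but -1.32 and -1.35 for lower rows, so the order was not the same in every band.

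Along the coding cluster, the part nearest its 5′ end held the most inner clusters of the list. Non-coding clusters of the array outside the list cannot be seen, so these shares have no background. Of the 409 higher inner clusters that lay wholly inside, 148 had their midpoint in the first of 4 equal parts of the coding cluster (36.2%), and 96, 83 and 82 in the parts that follow. The 102 lower ones were divided more evenly, as 32 (31.4%), 21, 26 and 23. The median difference of the higher ones was 1.35 in the first part and 1.30 in the last, and that of the lower ones was -1.50 and -1.34. The place within exons, introns and untranslated regions was not computed, since exon positions were not used here.

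Inner clusters were found on each autosome and on the sex chromosomes. The X chromosome held most, 42 (8.05%), all higher and spread over 21 coding clusters. It held 66 of the other long non-coding clusters (2.87%) and 375 of the 4097 coding clusters with a position (9.15%). Of its 178 higher coding clusters, 21 held an inner cluster (11.8%), where 14.2% of all higher coding clusters did. Of its 197 lower coding clusters, 0 held an inner cluster. Those lower rows were short, with a median length of 3.50 kb and 16 above 30 kb, beside 23.8 kb and 79 for the higher rows. Genes of the X chromosome are silenced during male meiosis, and many short multicopy genes of the X chromosome are expressed in spermatids.

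Of the 311 coding clusters, 208 held a single inner cluster and 103 held several, which together had 314. In 102 of these 103, all inner clusters had the same direction, the exception being *Etl4*. There were 55 coding clusters with at least 3 inner clusters, 49 higher and 6 lower. Within these, the inner clusters spanned a median of 0.41 on the log2 scale, from 0.04 in *Arid1b*, a chromatin remodelling gene, to 1.52 in *Tshz2*. The inner clusters all changed more than the gene in 11 of the 55 and all changed less in 15.

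The coding clusters with most inner clusters included those of *Tox*, *Trps1* and *Nfia*. *Tox*, which encodes an HMG box protein of the nucleus, held 9 over its 305.2 kb, the most of any coding cluster. The *Tox* coding cluster averaged 7.14 and 8.51, a difference of 1.37. Its inner clusters had differences from 1.24 to 2.00 with a median of 1.75, and 8 of the 9 exceeded that of the gene. The nearest to the 5′ end, at chr4:6973453-6975414, had the largest, from 6.15 to 8.15. *Trps1*, the gene of a GATA-type zinc finger repressor, held 8, with differences from 1.21 to 1.82 beside 1.28 for the gene, and 7 of the 8 exceeded it. The inner clusters of *Trps1* averaged from 3.83 to 5.21 in wild-type and from 5.19 to 6.42 in *Ctcf*-cKO, a weak signal.

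*Nfia*, a nuclear factor I gene, held 7, and here each changed less than the gene. Its coding cluster went from 7.04 to 8.81, a difference of 1.77, and the inner clusters had differences from 1.23 to 1.56. They lay from 16.8% to 92.5% of the way along the gene.

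Many inner clusters also lay in *Diap2*, *Erbb4*, *Nckap5* and *St6gal1*. *Diap2*, a formin gene of the X chromosome, held 7 over 716.1 kb, all changed less than the gene, with differences from 1.01 to 1.38 beside 1.65. *Erbb4*, a receptor of neuregulins, went from 6.15 to 7.57, and its 6 inner clusters had differences from 1.05 to 1.67. Those 6 all lay in the first 36.8% of the gene. All but that nearest the 5′ end averaged under 6 in both genotypes, so their differences rest on weak signal. The 6 inner clusters of *Nckap5* had differences from 1.28 to 1.99 beside 1.33 for the gene, and 5 of them exceeded it. *St6gal1*, the gene of a sialyltransferase of the Golgi apparatus, went from 6.67 to 8.16, a difference of 1.49. Of its 6 inner clusters, 5 changed less, from 1.01 to 1.47, and the other changed by 1.80.

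The 10 largest differences among the higher inner clusters lay in 8 genes of varied functions. *St3gal4*, another sialyltransferase gene, contributed 3 of the 10 largest. Its inner clusters at chr9:35089719-35091455, chr9:35073787-35075506 and chr9:35079772-35087806 went from 8.06 to 10.88, from 8.46 to 11.12 and from 8.57 to 10.95. These are differences of 2.82, 2.66 and 2.38, folds of 7.06, 6.32 and 5.21. All exceeded that of the coding cluster, which went from 7.74 to 9.46, a fold of 3.29.

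In *Tshz2*, a teashirt zinc finger gene, the inner cluster at chr2:169671122-169672256 went from 6.62 to 9.37, a difference of 2.75, and the gene from 7.66 to 9.43, a difference of 1.77. The other 3 inner clusters of *Tshz2* had differences of 2.07, 1.68 and 1.23, in order from the 5′ end. *Cyp11a1* encodes the side-chain cleavage enzyme that begins steroid synthesis from cholesterol in Leydig cells. Its inner cluster at chr9:58021247-58022329 went from 5.02 to 7.77, a fold of 6.73, and the gene from 9.99 to 12.19, a fold of 4.59. *Gm15963* lies within *Ntn4*, the gene of a netrin of basement membranes, at chr10:93726726-93728207. It went from 3.23 to 5.87 and *Ntn4* from 6.86 to 8.89, and a neighbouring inner cluster of *Ntn4* had a difference of 1.76. Both averages of *Gm15963* were under 6, so the size and rank of its difference rest on weak signal. The neighbouring inner cluster was also under 6 in both genotypes.

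Among receptors and ligands, *Prlr*, the prolactin receptor gene of Leydig cells, held 3 inner clusters. That nearest its 5′ end, at chr15:10181135-10182024, went from 6.21 to 8.76, a difference of 2.55 beside 2.25 for the gene, and the others had 1.84 and 1.74. *Kitl* encodes the ligand that Sertoli cells present to KIT. Its inner clusters at chr10:100057498-100059212 and chr10:100067214-100070549 went from 5.34 to 7.78 and from 5.97 to 7.77, and the gene from 7.42 to 9.50. *Igf1r*, an insulin-like growth factor receptor gene, held 4, of which that at chr7:68051058-68054086 had the largest difference, 2.39 beside 2.04 for the gene. *Acsbg1*, an acyl-CoA synthetase gene, went from 9.81 to 11.68 and its inner cluster from 7.01 to 9.24.

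The 10 largest differences of lower inner clusters lay in genes of varied functions, some of them uncharacterized. In *Wdr27*, the gene of a WD repeat protein, the inner cluster at chr17:14833557-14834545 went from 7.54 to 5.09, a difference of -2.45 beside -1.25 for the gene. *Ankef1*, which encodes a protein with ankyrin repeats and an EF hand, went from 10.08 to 8.90 and its inner cluster at chr2:136556055-136559210 from 7.30 to 5.09. The differences were -1.18 and -2.21. *Lin7a*, the gene of a PDZ scaffold protein of cell junctions, had differences of -1.41 for the gene and of -2.20 and -1.14 for its inner clusters. The inner cluster with -1.14 averaged 4.92 and 3.78, a weak signal.

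*Agbl4*, which encodes a carboxypeptidase that trims glutamate from tubulin, held 3 lower inner clusters over 1266.7 kb. They had differences of -2.10, -1.74 and -1.73 beside -1.59 for the gene, and the largest was nearest the 5′ end. That cluster averaged 5.69 and 3.59, a weak signal on which its size and rank rest. *Pvrl3*, the gene of a nectin that joins spermatids to Sertoli cells, also held 3, with differences of -1.83, -1.42 and -1.01 beside -1.15. In *Mlf1* the gene went from 10.90 to 9.89 and the inner cluster from 6.44 to 4.53. In *Lrriq1*, a gene of a leucine-rich repeat protein, the differences were -1.57 for the gene and -1.96 for the inner cluster, which lay at 99.1% of its length. The others of the 10 were in *4930433N12Rik*, *4932411E22Rik* and *Gm10619*, with differences of -1.99, -1.88 and -1.86 beside -1.44, -1.14 and -1.64.

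Where inner cluster and gene had the same direction, the widest departures were in 7 genes. The inner cluster changed more than the gene by 1.20 in *Wdr27*, by 1.10 in *St3gal4*, by 1.03 in *Ankef1*, by 0.98 in *Tshz2* and by 0.96 in *Ust*, a uronyl sulfotransferase gene. That of *Ust*, at chr10:8500204-8502112, went from 4.99 to 6.96 and the gene from 6.46 to 7.47. The inner cluster changed less than the gene in *Abca1*, the cholesterol efflux transporter, with differences of 1.09 and 2.11, and in *Prkd1*, a protein kinase D gene, with 1.15 and 2.08. The other 4 inner clusters of *Prkd1* had differences from 1.49 to 2.16.

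The inner clusters with a symbol of their own numbered 23, of which 12 were higher and 11 lower, and 14 lay wholly inside the gene. None carried the symbol of a microRNA, a small nucleolar RNA or its host gene. *2210017G18Rik*, *Gm26814* and *Gm26736* follow each other in *Ppp1r9a*, the gene of an actin-binding neurabin, and were named after their values were seen. They had differences of 1.71, 1.53 and 1.68 beside 1.47 for the gene, whose 2 other inner clusters, without symbols, changed less, down to 1.18. *Gm19537* overlaps *Irs1*, an insulin receptor substrate gene, with 1.25 beside 1.77.

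Lists of Leydig, Sertoli, peritubular, macrophage and endothelial cells named 58 genes, of which 35 had a coding cluster, all 35 higher. Lists of primary spermatocytes, round spermatids and elongating spermatids named 43 genes, of which 32 had one, all 32 lower. Inner clusters lay in 3 of the 35 and in 0 of the 32, small counts beside shares of 14.2% of all higher and 3.53% of all lower coding clusters. Several germ cell genes without any are long, such as *Sycp1* with 117602 positions and *Spata16* with 345593. Most long lower coding clusters held none either, as 16.1% from 100 to 300 kb and 32.5% above 300 kb held one. How far the proportions of cell types account for the directions was not tested.

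The Leydig list had 9 of 12 genes in the table. The linear signals of these summed to 8220 and 31083, wild-type first, with *Cyp17a1*, an enzyme of androgen synthesis, the brightest. *Cyp11a1* was the gene with an inner cluster. The Sertoli list had 12 of 16 genes, with sums of 6335 and 18414 and *Ctsl*, a cathepsin gene, the brightest in *Ctcf*-cKO and *Clu* in wild-type, and inner clusters lay in *Kitl* and *Wt1*. *Wt1*, which encodes a zinc finger protein that maintains Sertoli cells, went from 8.43 to 10.02, and its inner clusters from 7.32 to 9.04 and from 8.04 to 10.01.

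For peritubular myoid cells 6 of 9 genes had a coding cluster (sums of 2106 and 5933, *Acta2* the brightest). The macrophage list had 6 of 12 (890 and 2742, *Lyz2* in *Ctcf*-cKO and *Mrc1* in wild-type) and the endothelial list 2 of 9 (208 and 454, *Cdh5*), all without inner clusters. Of the spermatogonia list only *Kit* had a row among 10 genes. *Kit* is also expressed in Leydig cells, so this row does not report on spermatogonia alone. It went from 7.81 to 10.09 and its inner cluster at chr5:75610958-75613528 from 6.14 to 8.14.

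The primary spermatocyte list had 13 of 15 genes (10474 and 4234, *Piwil1* the brightest), the round spermatid list 14 of 15 (20239 and 8498, *Pgk2*) and the elongating spermatid list 5 of 13 (13750 and 6356, *Spem1*). Among the pathway lists, lysosome genes were higher in 16 of 16 rows (4356 and 14048, *Ctsb* in *Ctcf*-cKO and *Psap* in wild-type) and extracellular matrix genes in 10 of 10 (3813 and 10808, *Sparc*), and neither list held inner clusters. Dynein and axoneme genes, which build the sperm tail, had 20 lower rows and 1 higher row, *Dnah9* (29150 and 10993, *Dnah8* in wild-type and *Rsph1* in *Ctcf*-cKO). None of these 21 held an inner cluster, and their median length was 128.3 kb. Among all lower coding clusters, 5.84% of those from 30 to 100 kb and 16.1% of those from 100 to 300 kb held one. Non-coding clusters of the array that the authors did not list cannot be seen here.

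Gene Ontology terms of the array's annotation were counted for a few functions, chosen after the values were seen. The totals are only the coding clusters annotated with any term, fewer than the 221 higher and 90 lower ones with an inner cluster. The term for a sequence-specific transcription factor was carried by 18 of 206 higher coding clusters with an inner cluster (8.74%). It was carried by 42 of 1171 higher ones without (3.59%) and by 14 of 454 of those longer than 30 kb (3.08%). The 18 included *Ebf1*, *Nfia*, *Trps1*, *Tshz2*, *Wt1*, *Zeb2* and the thyroid hormone receptor gene *Thrb*. For the Golgi apparatus the counts were 25 of 204 (12.3%) and 94 of 1207 (7.79%), with 45 of 464 above 30 kb (9.70%). For the extracellular region they were 10 of 204 (4.90%) and 172 of 1207 (14.3%), with 60 of 464 above 30 kb (12.9%). Among lower coding clusters, spermatogenesis was carried by 3 of 76 with an inner cluster (3.95%), namely *Nme8*, *Nr6a1* and *Tdrd5*. It was carried by 134 of 1896 without (7.07%), with 47 of 613 above 30 kb (7.67%). Among higher ones it was carried by 4 of 180 with (2.22%) and 18 of 1112 without (1.62%). For lower ones, with and without, the transcription factor counts were 3 of 77 (3.9%) and 18 of 1781 (1.01%). The Golgi counts were 2 of 76 (2.63%) and 37 of 1778 (2.08%), and the extracellular ones 2 of 76 (2.63%) and 60 of 1778 (3.37%). These shares were not tested.

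An inner cluster and its gene share a strand, and most inner clusters have no start of their own in the RefSeq table, so the start of the gene is the promoter to show. RefSeq promoters of build GRCm38.p6 were found for 234 of the 311 coding clusters, and the 250 bases before the start were searched for CCCTC, the letters after which CTCF is named, on both strands. They held these letters in 130 of 170 higher genes (76.5%) and in 39 of 64 lower genes (60.9%), beside 16140 of all 27025 RefSeq genes (59.7%). For a coding cluster the start nearest its 5′ end was used, and for all RefSeq genes the first start listed. Changed coding clusters without an inner cluster were not counted, so these shares cannot be tied to holding one. The letters AAGGTCA, read by steroidogenic factor and related nuclear receptors, was in 5 of 170 (2.94%), in 5 of 64 (7.81%) and in 1095 of all (4.05%). A match describes letters and is no evidence of binding.

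The promoters of *St3gal4*, *Cyp11a1* and *Kitl*, each with inner clusters among the 10 largest differences, held CCCTC or its complement GAGGG at 15, 2 and 1 positions. Those of *Lin7a* and *Agbl4*, with lower inner clusters, held it at 3 and 0. Those of *Ankef1* and *Mlf1*, also with lower inner clusters and not printed, held it at 0 each. The genes of this paragraph were picked without a fixed rule, and others with the largest differences are not shown. Their counts are therefore no comparison of higher with lower genes. The RefSeq start used for *Ankef1* lies inside its coding cluster, 30411 positions from the 5′ end. The printed ones are chr9:35116865-35117114 on the minus strand, and chr9:58014702-58014951, chr10:100015571-100015820, chr10:107271581-107271830 and chr4:110397448-110397697 on the plus strand. Each is written 5′ to 3′ with the matching letters in capitals.
*St3gal4*: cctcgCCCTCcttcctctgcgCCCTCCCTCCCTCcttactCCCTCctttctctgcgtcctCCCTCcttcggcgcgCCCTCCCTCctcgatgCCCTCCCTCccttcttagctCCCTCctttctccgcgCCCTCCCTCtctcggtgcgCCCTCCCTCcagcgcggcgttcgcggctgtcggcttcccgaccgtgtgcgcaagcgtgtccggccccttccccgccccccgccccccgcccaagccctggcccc
*Cyp11a1*: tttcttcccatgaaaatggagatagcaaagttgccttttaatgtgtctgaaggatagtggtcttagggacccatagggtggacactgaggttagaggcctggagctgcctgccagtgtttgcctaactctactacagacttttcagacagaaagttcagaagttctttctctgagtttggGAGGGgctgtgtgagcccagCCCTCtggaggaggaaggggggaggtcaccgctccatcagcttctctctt
*Kitl*: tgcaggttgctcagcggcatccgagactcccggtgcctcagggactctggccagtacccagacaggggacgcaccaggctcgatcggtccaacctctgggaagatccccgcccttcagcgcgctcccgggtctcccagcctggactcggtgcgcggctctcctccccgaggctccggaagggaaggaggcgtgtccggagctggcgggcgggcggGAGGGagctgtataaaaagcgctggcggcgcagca
*Lin7a*: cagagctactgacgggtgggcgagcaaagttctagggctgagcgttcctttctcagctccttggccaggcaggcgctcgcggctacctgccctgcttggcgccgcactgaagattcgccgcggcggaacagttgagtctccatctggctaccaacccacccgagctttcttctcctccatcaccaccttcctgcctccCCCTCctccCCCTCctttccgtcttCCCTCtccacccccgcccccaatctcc
*Agbl4*: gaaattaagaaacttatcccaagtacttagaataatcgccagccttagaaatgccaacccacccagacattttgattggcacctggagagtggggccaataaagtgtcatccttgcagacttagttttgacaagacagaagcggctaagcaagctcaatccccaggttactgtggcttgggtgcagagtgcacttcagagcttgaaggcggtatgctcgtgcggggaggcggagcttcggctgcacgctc

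Of the inner clusters with a symbol that lie wholly inside a gene, 2 had a RefSeq promoter, and for both the start fell at the edge of the inner cluster. *Gm6653* in *Parpbp*, a gene of DNA repair, averaged 8.70 and 6.96, and *Parpbp* averaged 7.72 and 6.51. *Gm15509* in *Spata17* averaged 6.65 and 5.62, and *Spata17*, a testis gene of a calmodulin-binding protein, averaged 9.75 and 8.15. The bases before their starts, chr10:88135854-88136103 and chr1:187124366-187124615 on the minus strand, lie within the gene on its own strand and held CCCTC or its complement at 0 and 1 positions.
*Gm6653*: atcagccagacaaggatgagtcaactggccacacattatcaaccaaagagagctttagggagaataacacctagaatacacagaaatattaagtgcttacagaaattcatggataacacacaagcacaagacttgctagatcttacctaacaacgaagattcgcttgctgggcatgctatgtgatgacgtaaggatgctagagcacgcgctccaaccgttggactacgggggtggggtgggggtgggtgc
*Gm15509*: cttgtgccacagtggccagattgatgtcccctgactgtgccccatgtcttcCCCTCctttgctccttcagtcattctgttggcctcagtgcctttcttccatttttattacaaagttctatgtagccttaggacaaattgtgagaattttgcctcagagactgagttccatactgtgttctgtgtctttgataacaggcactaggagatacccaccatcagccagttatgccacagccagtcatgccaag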

How the data were processed

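The table analysed is the authors' deposited matrix of transcript clusters. Its values are bi-weight averages of log2 signal per genotype, written with decimal commas and read as decimal points. The submitters' processing notes name RMA, Affymetrix Expression Console 1.4.1, Transcriptome Analysis Console 3.0 and build mm10. The authors kept clusters past a fold and a p threshold. Their fold, p and adjusted p columns were not used. Of 301 coding clusters matched by symbol to RefSeq genes of GRCm38.p6, 299 overlapped the gene. Overlaps, counts and medians were computed with Python 3.11.15, pandas 2.3.3, numpy 2.4.6 and scipy 1.17.1, and the pairing was tested on simulated rows. Levels of different clusters were set side by side only for the sums and brightest genes of the lists, which probe response limits. Named were the pairs with opposite directions, the 10 largest differences each way, coding clusters among the 8 with most inner clusters, the 5 widest departures each way and most listed genes with an inner cluster. The inner clusters and lists were chosen with earlier results of these data known. Alternatives changed length, overlap, class, signal, size and centring. The number of arrays limits the precision.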

Additional observations from a re-analysis of the deposited data

How the results depend on the processing

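No paired analysis was possible because the table holds averages per genotype and 0 columns of single mice. Without them, the fits lacking each replicate and the replicate block were not run, and the alternatives for the place within exons were not run without exon positions. Over 10 alternatives of length, overlap, class, repeated averages, signal, size and pairing, between 70.0% and 80.0% of inner clusters were higher, and between 97.9% and 100% of pairs had matching directions. Counts moved where fewer clusters were admitted, as fewer remain by construction. With Coding rows only, 72 were higher and 22 lower, 92 pairs matched and 72 lay within 0.5. With an average of at least 8 in either genotype for both clusters, 70 were higher and 30 lower, 99 matched and 79 lay within 0.5. With a difference of at least log2(3), 106 were higher and 28 lower, 134 matched, 92 lay within 0.5 and the median of inner cluster minus coding cluster was 0.23 instead of -0.07; choosing inner clusters by their own size raises this median by construction. Subtracting the median of the list, -1.15, from every difference left 431 above and 91 below 0, and 41 pairs then had opposite signs instead of 3. All rows were chosen for their change, so that median is not the array's. Weak signal limits 75 inner clusters under 6 in both genotypes.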
